A study of Mus musculus with 63 samples.

Results

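The 9 genes described here are MAP kinase feedback inhibitors: the dual-specificity phosphatases Dusp1, Dusp4, Dusp5 and Dusp6, the Sprouty genes Spry1, Spry2 and Spry4, and the Sprouty-related genes Spred1 and Spred2. They were taken by symbol from the gene counts, and all 9 were among the 55291 symbols counted. RNA-seq was performed on entorhino-hippocampal slice cultures of mice, prepared at postnatal days 3 to 5 and kept for at least 18 days. The dentate gyrus (DG) or CA3 of single cultures was cut out from wildtype C57BL/6J cultures (Synpo+/+) and from cultures labelled synaptopodin-deficient (Synpo-/-, strain B6.129-Synpotm1Mndl/Dllr), without a lesion (control) or 3 days after transection of the entorhinal cortex (ECL), which removes the main cortical input to both regions. The 39 regional libraries were Synpo+/+ CA3 control (n = 2) and ECL (n = 3), Synpo+/+ DG control (n = 4) and ECL (n = 7), Synpo-/- CA3 control (n = 6) and ECL (n = 6), and Synpo-/- DG control (n = 7) and ECL (n = 4). A further 24 libraries came from lysates of pooled cultures, 6 each by the methods and 5 to 6 by a figure legend. They held input RNA and RNA co-precipitated with a synaptopodin antibody (coIP). The cultures were Synpo+/+ control (5 of each RNA), Synpo+/+ ECL (5 of each) and Synpo-/- (2 of each, lesion state not given in the labels).

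Signals from receptor tyrosine kinases and from calcium influx pass through Ras, Raf and MEK to the kinases ERK1 and ERK2, which induce transcription of genes that then dampen the pathway. Dusp6 acts in the cytoplasm and Dusp5 in the nucleus to dephosphorylate ERK, while the nuclear phosphatases Dusp1 and Dusp4 also act on the stress kinases JNK and p38. Sprouty proteins interfere with signalling between the receptor and Raf, and Spred proteins bring the Ras GTPase activating protein neurofibromin to the membrane. In neurons, transcripts of this kind rise with synaptic activity, and in glia with growth factors.

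Total counts ran from 14055930 to 46043990 per regional library and from 11601154 to 53682143 per library of the coIP experiment. Levels are given as CPM, counts scaled to the TMM-normalized size of the library, and within libraries the members reached from 18 counts (Dusp4 and Dusp5) to 6546 counts (Spred1). In the regional groups, mean Synpo, counted over all its exons, was not lower where the label was Synpo-/-. In control DG it was 51.8 CPM ± 9.32 (SD, n = 7), against 22.5 ± 2.36 (n = 4) in Synpo+/+. In coIP RNA its mean was lower in Synpo-/- (28.2 CPM, n = 2) than in Synpo+/+ control (35.7, n = 5) and ECL (37.3, n = 5). Which exons the allele removes is not given in the sources used here, so the Synpo level checked no genotype label, and every genotype comparison below rests on the labels. The granule cell transcription factor Prox1 separated the regions, with 120 to 217 CPM in DG and 12.7 to 44.0 CPM in CA3, apart from 1 library labelled Synpo+/+ DG ECL (replicate 5), which had 15.5 CPM and is called the low-Prox1 library below. Member results that include this library are therefore given with and without it where its removal changes a call. RNA of whole tissue pieces was measured, so fewer cells of a type and less RNA per cell cannot be told apart.

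All 9 members are protein coding in the annotation of the files (GRCm38). Dusp6 (ENSMUSG00000019960.8, chr10:99263231-99267489, plus strand) and Dusp1 (ENSMUSG00000024190.7, chr17:26505590-26562128, minus strand) share no more than 11 exon bases with another gene. In Dusp5, 22.1% of the exon bases overlap the antisense gene Gm50394, and in Spry1, 24.4% overlap the antisense gene Gm42922. Since reads were counted without regard to strand, the levels of Dusp5 and Spry1 cannot be told apart from those of their antisense partners over these bases.

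RefSeq promoters (GRCm38.p6) were at hand for 7 of the 9 members, and the 200 bases from 250 to 51 before the start were searched on both strands for 5 motifs. Those of Dusp6, the member that rose after lesion, of Dusp1, the member with a full cAMP response element, and of Dusp5, the member with serum response elements, are shown. Capitals mark motif matches, and the Dusp6 window holds none.
Dusp6, chr10:99262981-99263180, plus strand: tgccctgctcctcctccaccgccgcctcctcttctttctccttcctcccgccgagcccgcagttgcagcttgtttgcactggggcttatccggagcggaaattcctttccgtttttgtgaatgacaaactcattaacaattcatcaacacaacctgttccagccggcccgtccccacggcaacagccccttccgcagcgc
Dusp1, chr17:26508523-26508722, minus strand: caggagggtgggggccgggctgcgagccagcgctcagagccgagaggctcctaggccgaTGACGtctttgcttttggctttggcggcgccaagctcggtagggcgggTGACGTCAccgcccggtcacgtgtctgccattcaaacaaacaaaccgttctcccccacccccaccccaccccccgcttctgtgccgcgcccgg
Dusp5, chr19:53528895-53529094, plus strand: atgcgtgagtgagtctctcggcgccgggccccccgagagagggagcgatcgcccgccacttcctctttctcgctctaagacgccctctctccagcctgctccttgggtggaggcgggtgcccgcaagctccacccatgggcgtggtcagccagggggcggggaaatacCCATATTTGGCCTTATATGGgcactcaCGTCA
The full element TGACGTCA lies with its first base 143 bases before the RefSeq start of Dusp1. That start differs from the start of the Dusp1 gene span given above, within which the window lies. The full element is found in 0.828% of the 32851 RefSeq promoter windows. Its shorter form TGACG, which also lies within each arm of the full element, was found in the windows of Dusp1 and Dusp5 and in 12.7% of all windows. The serum response element (CArG box, in its general form with any A or T in the middle) was found in 1 of the 7 windows and in 1.16% of all windows. In Dusp5 it starts 82 and again 72 bases before the start. The AP-1 motif TGANTCA (5.57% of all windows) and the ETS motif CCGGAAGT (1.4%) were found in none of the 7. A match is a stretch of letters, not a measured binding site.

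To describe the members in the regional libraries, levels were first compared between genes per kilobase of exon. Spry2 (median 29.3 CPM per kb over the 39 libraries) and Spred1 (24.5) were the most abundant, and their ranges, 16.5 to 46.5 and 19.7 to 29.8 CPM per kb, overlapped. Dusp6 (6.32) and Spred2 (5.9) followed, also with overlapping ranges, and neither reached the lowest Spry2 value: their highest libraries were at 11.7 and 8.31 CPM per kb. Dusp1 (3.7), Spry1 (2.52) and Spry4 (2.04) came next, and Dusp5 (1.02) and Dusp4 (0.768) were lowest, each overlapping with its neighbours in this order. In the regional libraries, Spry2 was thus well above the other Sprouty genes, and Dusp6 above the other phosphatases by its median. In the 24 libraries of the coIP experiment the order of Dusp6 and Spry2 was the reverse. Dusp6 had a median of 15.4 CPM per kb (9.98 to 21.4) and Spry2 of 6.66 (3.6 to 13.9), with overlapping ranges.

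The members also differed in how far their 8 group means spread. The highest and lowest group means were 2.74-fold apart in Dusp5, 2.5-fold in Dusp6 and 2.07-fold in Spry1. In Spred1, the most abundant member per library, they were 1.21-fold apart, and in Spred2 1.41-fold. For Dusp6 the lowest group was Synpo+/+ CA3 control (12.9 CPM ± 1.23) and the highest Synpo-/- DG ECL (32.2 ± 0.275). Spry2 had its highest mean in Synpo+/+ CA3 control (82.5 CPM ± 8.95, n = 2) and its lowest in Synpo-/- CA3 control (46.3 ± 8.73, n = 6).

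**Figure D1:**
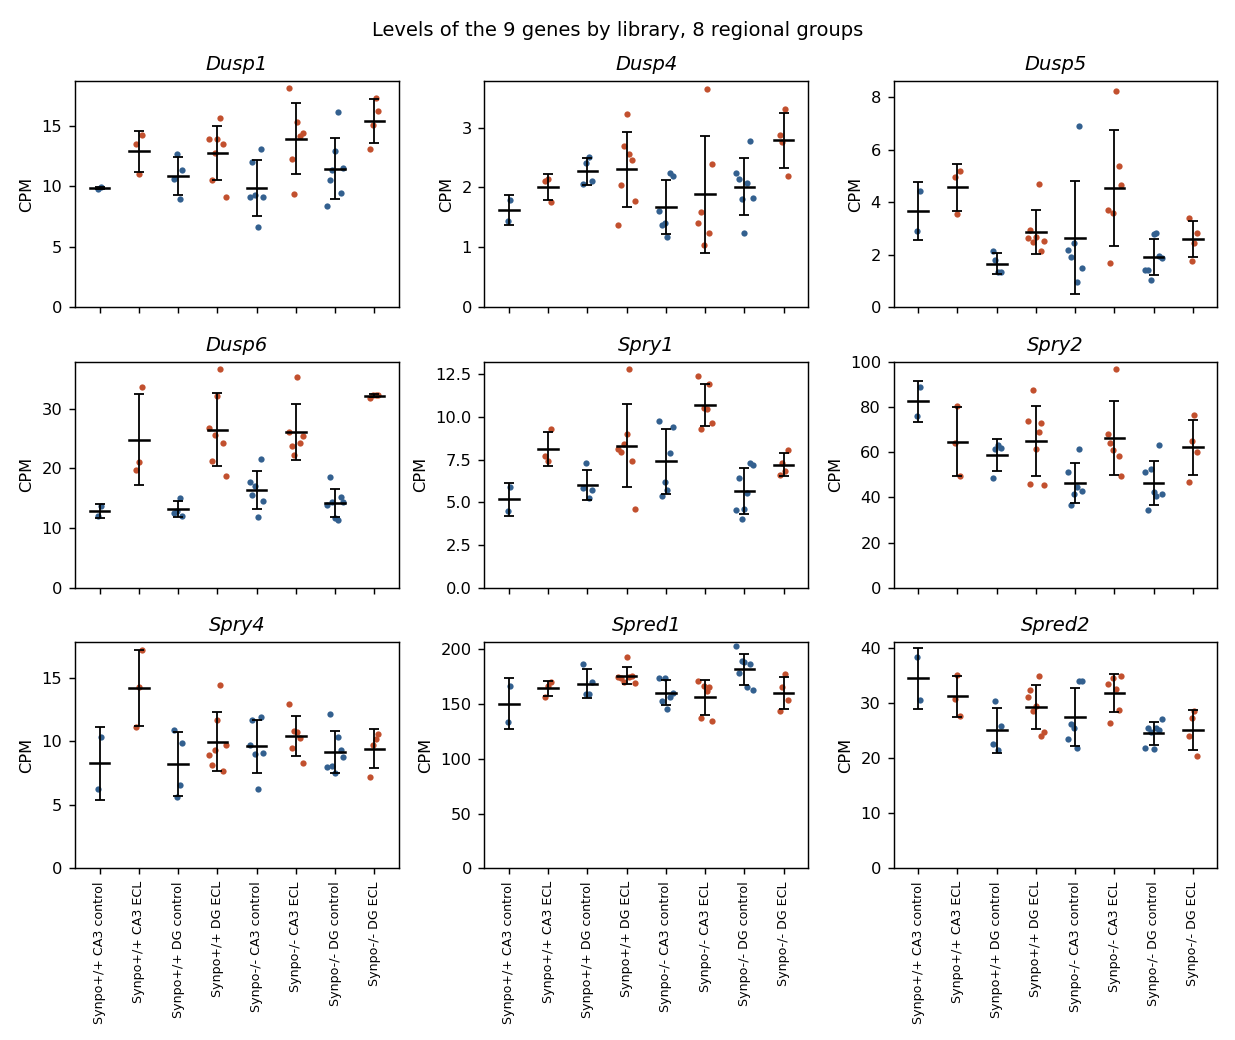
TMM-normalized CPM (y axes, from 0) of the 9 genes in the 8 regional groups (x axes), with 1 point per library, controls in blue, ECL in red, and mean with SD in black. In Dusp6 every ECL library lies above all controls of its region and genotype, while Spred1 group means stay between 150 and 181 CPM.

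After lesion, Dusp6 rose in the DG of both genotypes, and it was the only member called there. In Synpo+/+ DG, control libraries had 12.6, 12.8, 15.1 and 12.1 CPM, and the 7 ECL libraries had 18.7 to 36.6 CPM with a median of 25.6. The log2 fold change was 0.98 ± 0.162 (SE), with an adjusted p of 0.00185 (edgeR quasi-likelihood test, Benjamini-Hochberg over all genes). In Synpo-/- DG, the 7 control libraries had 11.4 to 18.6 CPM (median 14.3), and the 4 ECL libraries had 31.8, 32.2, 32.3 and 32.4 CPM. Here the log2 fold change was 1.13 ± 0.12 with an adjusted p of 3.54e-05, so that Dusp6 stood about 2.19-fold above control. In both genotypes each lesioned library lay above each control library, and the 4 lesioned Synpo-/- libraries were closer to each other than those of any other group.

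These calls stood against 12.2% of all genes called in Synpo+/+ DG and 8.53% in Synpo-/- DG. Complete separation of the lesioned above the control libraries was seen in 1 of 9 members in each of the 2 comparisons, against 7.68% and 5.42% of all genes. Leaving out any library kept Dusp6 called in all 11 fits of each comparison. Without the low-Prox1 library, its log2 fold change was 0.87 with an adjusted p of 0.000594. The difference in the Dusp6 response between the genotypes was 0.11 ± 0.211 on the log2 scale (adjusted p = 0.819).

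In CA3, Dusp6 was higher in the lesioned libraries without passing the test. The 2 Synpo+/+ CA3 controls had 12.0 and 13.7 CPM and the 3 ECL libraries 19.8, 21.1 and 33.6 CPM, a log2 fold change of 0.84 ± 0.222 (adjusted p = 0.0756). In Synpo-/- CA3, 6 control libraries had 11.9 to 21.5 CPM (median 16.3) and 6 ECL libraries 22.2 to 35.4 CPM (median 24.8), a log2 fold change of 0.69 ± 0.132 (adjusted p = 0.0638). The groups did not overlap in either genotype. Separation of this kind was seen in 4 of 9 members in Synpo+/+ CA3, where 30.2% of all genes showed it, and in 1 of 9 members in Synpo-/- CA3, where 0.188% did. No member was called in CA3 by edgeR, against 1.78% of all genes called in Synpo+/+ and 0.077% in Synpo-/-. An unadjusted p under 0.05 was reached by 4 of 9 members in each genotype. Of all genes, 5348 of 22340 reached it in Synpo+/+ and 1510 of 20772 in Synpo-/-. DESeq2 called Dusp6 in both genotypes, and 3.04% and 0.133% of all genes. Whether the lesion response differed between DG and CA3 was not tested.

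**Figure D2:**
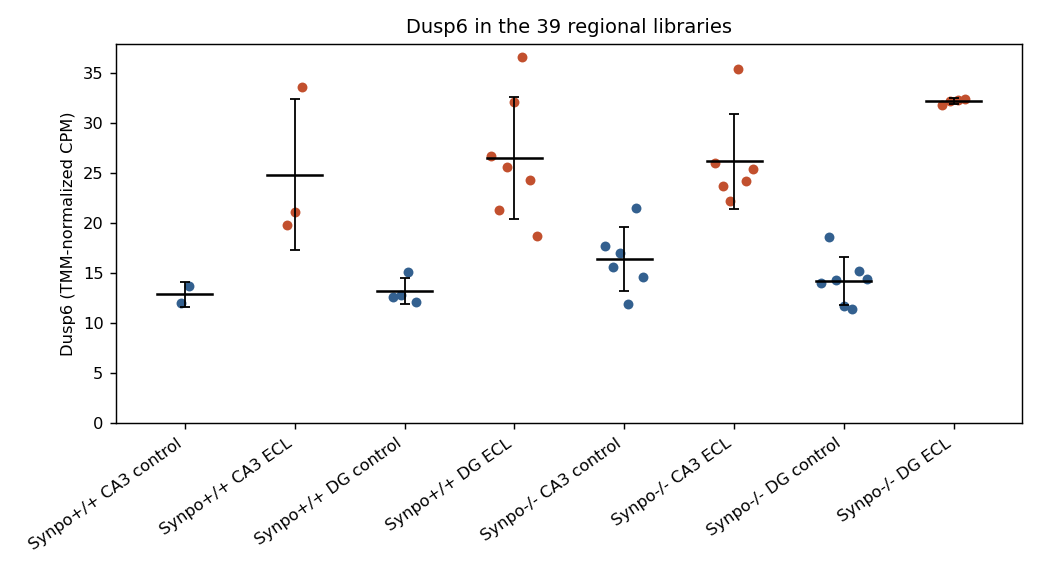
Dusp6 in TMM-normalized CPM (y axis, from 0) in each of the 39 regional libraries by group (x axis), with mean and SD in black, controls in blue and ECL in red. No lesioned library of a region and genotype falls among its controls, and the 4 Synpo-/- DG ECL libraries sit between 31.8 and 32.4 CPM.

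Cell type markers and immediate early genes moved in the same DG libraries. The summed level of 8 microglial markers was 341 to 481 CPM in Synpo+/+ DG control and 923 to 1120 CPM after ECL, and 440 to 815 and 976 to 1250 CPM in Synpo-/- DG. The sum of 8 astrocyte markers went from a range of 4470 to 5240 CPM to 6990 to 9050 CPM in Synpo+/+ DG and from 4780 to 5680 CPM to 7410 to 9560 CPM in Synpo-/- DG. All 8 microglial markers were called higher in Synpo+/+ DG (7 of 8 in Synpo-/- DG), as were 6 of 8 astrocyte markers (7 of 8 in Synpo-/- DG). Of 5 oligodendrocyte precursor markers, 3 were called higher in Synpo+/+ DG and 2 in Synpo-/- DG, and of 8 oligodendrocyte markers 1 in each. Of 6 endothelial markers, 2 were called lower in Synpo+/+ DG, and of 6 interneuron markers 1 in Synpo-/- DG. No granule cell, CA3 pyramidal or general neuron marker was called in DG. In Synpo+/+ DG ECL, the low-Prox1 library included, the granule cell sum ran from 70.6 to 639 CPM (median 546). The CA3 pyramidal sum ran from 189 to 688 CPM (median 235) and the neuron sum from 3190 to 8210 CPM (median 3880). Marker calls without that library are not given here. The sum of 12 immediate early genes was 156 to 224 CPM in Synpo+/+ DG control and 210 to 678 CPM after ECL, and 154 to 189 and 391 to 751 CPM in Synpo-/- DG. The part of glial or other cells in the Dusp6 result was not tested. In Synpo+/+ CA3, where Dusp6 was also separated, microglial sums were 366 to 592 CPM in control and 722 to 928 CPM in ECL, with 8 of 8 markers positive and 1 called (C1qa, 1.06, adjusted p = 0.0409). Astrocyte sums were 4780 to 5880 and 6450 to 7740 CPM there, with none called. In Synpo-/- CA3, where it was separated as well, no microglial or astrocyte marker was called, and the sums overlapped, at 548 to 997 and 475 to 854 CPM for microglia and 6040 to 7020 and 4750 to 7220 CPM for astrocytes. Oligodendrocyte markers were lower there, with sums of 1790 to 2880 CPM in control and 1200 to 1660 CPM in ECL. Of 8, Mbp (-0.7, adjusted p = 0.0108) and Mobp (-0.75, 0.0249), which encode myelin proteins, were called lower, and none was positive. In Synpo+/+ CA3 the oligodendrocyte sums overlapped (1310 to 2050 and 1350 to 2440 CPM). The immediate early gene sums were 168 to 175 and 197 to 311 CPM in Synpo+/+ CA3, and 119 to 184 and 206 to 374 CPM in Synpo-/- CA3. The part of any of these cell types in the CA3 values was not tested.

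In whole cultures, Dusp6 was not called after lesion. In input RNA of Synpo+/+ cultures, control samples had 64.7, 55.8, 57.5, 49.1 and 61.6 CPM, and ECL samples 55.8, 55.1, 63.8, 67.2 and 63.6 CPM. The log2 fold change was 0.07 ± 0.0905 (adjusted p = 0.719), and both groups overlapped. In coIP RNA it was -0.01 ± 0.122 (adjusted p = 0.982). Whole-culture inputs and regional pieces differed in the tissue they held and in the number of cultures per library. Their levels are set side by side without a test. Of 12 immediate early genes, 9 were tested in input and none was called. Their sums were 123 to 190 CPM in control and 118 to 155 CPM in ECL. No member was called for lesion by edgeR or DESeq2 in input (1 of 9 with an unadjusted p under 0.05) or coIP RNA (2 of 9), where 5.61% and 0.314% of all genes were called by edgeR. Of all genes, 3493 of 17951 in input and 2252 of 18449 in coIP RNA had an unadjusted p under 0.05.

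Of the other phosphatases, Dusp5 came closest to the threshold. In Synpo+/+ DG it had 1.32, 1.36, 1.81 and 2.16 CPM in control and 2.16 to 4.68 CPM (median 2.63) in ECL. The log2 fold change was 0.76 ± 0.243 (adjusted p = 0.0512), and the lowest lesioned library did not exceed the highest control. DESeq2 called it (with 8.39% of all genes), whereas edgeR without the low-Prox1 library gave 0.58 with an adjusted p of 0.0868. Without Synpo+/+ DG control replicate 1 it was called (0.93, adjusted p = 0.0474). In the other 3 regional comparisons its log2 fold change was 0.21, 0.79 and 0.42. Dusp1 was 0.28 and 0.51 on the same scale in Synpo+/+ and Synpo-/- CA3 and 0.21 and 0.39 in Synpo+/+ and Synpo-/- DG (adjusted p from 0.113 to 0.512). Dusp4 was between 0.0 and 0.42, at levels of 1.04 to 3.64 CPM.

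The Sprouty genes showed values of both signs. Spry1 had log2 fold changes of 0.55 in Synpo+/+ CA3, 0.44 in Synpo+/+ DG, 0.54 in Synpo-/- CA3 and 0.3 in Synpo-/- DG, with adjusted p between 0.148 and 0.348. In Synpo+/+ CA3, its controls were at 4.48 and 5.87 CPM, and its ECL libraries at 7.71, 7.43 and 9.29 CPM, without overlap. Spry2 was at -0.45 in Synpo+/+ CA3 and at 0.52 in Synpo-/- CA3, and Spry4 at 0.67 in Synpo+/+ CA3 and at 0.13 in Synpo-/- CA3. For neither did a lesion comparison pass the test in the fit used here, and Spry4 in Synpo+/+ CA3 was called only without a filter on low counts, where 5.67% of all genes were. That value rests on 2 controls: it was 0.39 without control replicate 1 and 1.12 without control replicate 2.

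Spred1 and Spred2, which act through neurofibromin, had values of either sign and no call. Over the 4 regional comparisons the log2 fold change of Spred1 lay between -0.23 and 0.03 and that of Spred2 between -0.25 and 0.22. Spred1 had the highest counts and the smallest standard errors of the members in these comparisons (0.0802 to 0.124). The median log2 fold change of the 9 members was 0.21 in both Synpo+/+ regions, 0.51 in Synpo-/- CA3 and 0.37 in Synpo-/- DG, and -0.16 and -0.37 in input and coIP. The median of all genes was between -0.01 and 0.01 in these 6 comparisons.

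**Figure D3:**
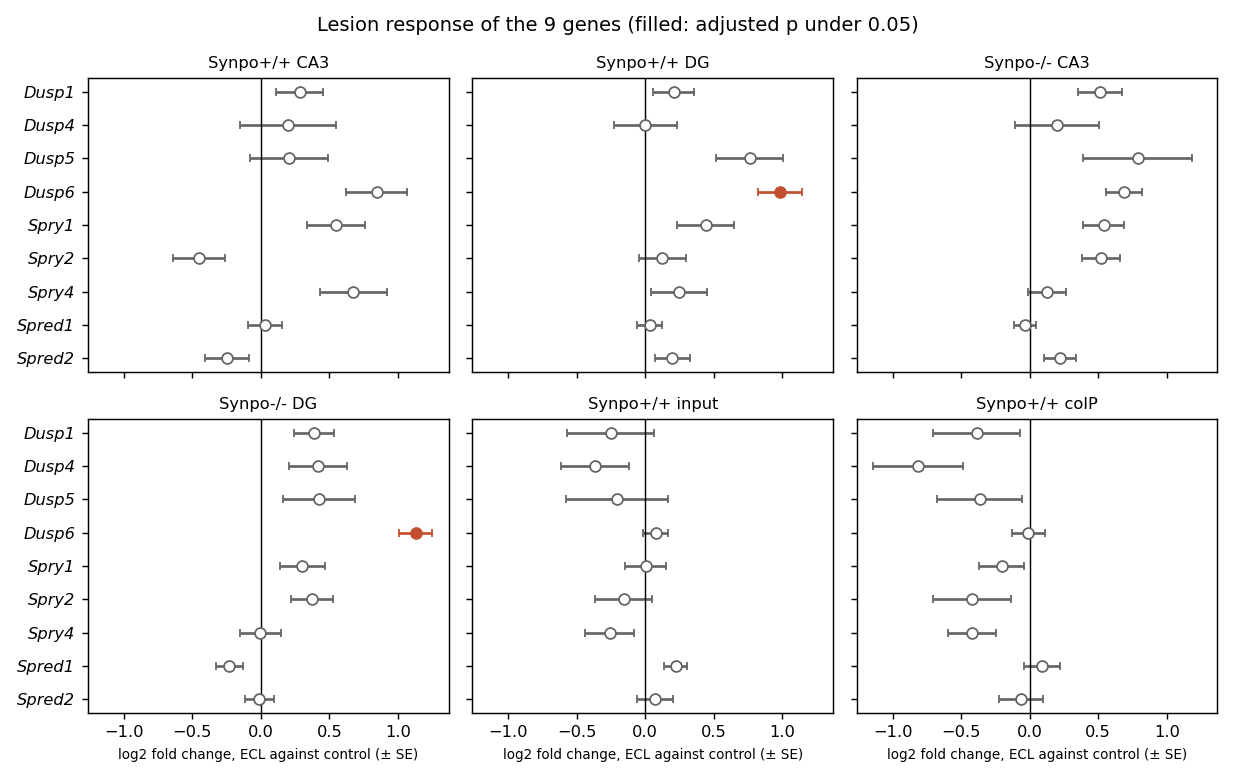
Log2 fold change of ECL against control with its standard error (x axis) for each of the 9 genes (y axis) in 6 comparisons, with filled red points for an adjusted p under 0.05. Dusp6 is filled in Synpo+/+ DG (0.98) and Synpo-/- DG (1.13) and lies at 0.07 in input and -0.01 in coIP.

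The pathway around the members was described by lists, whose counts stand against the 12.2% and 8.53% of all genes called in Synpo+/+ and Synpo-/- DG. Of 14 receptors, the DG comparisons called 1 higher in Synpo+/+ (Pdgfra, 0.41, the receptor of oligodendrocyte precursors) and 2 higher and 2 lower in Synpo-/-. The latter were Erbb2 (1.05) and the BDNF receptor Ntrk2 (0.43), and Kit (-1.06) and the neuregulin receptor Erbb4 (-0.62). Of 14 ligands, 2 were higher and 2 lower in Synpo+/+ DG, and 3 higher and 4 lower in Synpo-/- DG. Bdnf (0.88 and 0.75) and Igf1 (0.6 and 0.45) were called higher, and the endothelial growth factor Vegfa (-0.87 and -0.86) lower, in Synpo+/+ and Synpo-/- DG respectively. The median over the ligands was 0.08 and -0.17.

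Of 25 genes of the kinase cascade, 3 were higher and none lower in Synpo+/+ DG, and 4 higher and 2 lower in Synpo-/- DG. Map2k2, which encodes MEK2 (0.55 and 0.43), and the adaptor Gab1 (0.45 and 0.44) were called in both, and Braf was lower in Synpo-/- DG (-0.49). Among 8 Ras GTPase activating proteins, 1 was called, Rasal2 in Synpo-/- DG (-0.33). Among other MAP kinase phosphatases, Dusp14 was higher in Synpo-/- DG (0.59), and among other feedback inhibitors the EGF receptor inhibitor Errfi1 was higher in both (0.78 and 0.67). In CA3 no gene of these 6 lists was called in either genotype.

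Genes that ERK signalling is known to induce included further calls. Of 12 ERK-responsive transcription factor and cell cycle genes tested, 3 were higher in Synpo+/+ DG (Ccnd1 0.99, Myc 0.71 and Etv5 0.49) and 2 in Synpo-/- DG (Myc 0.61 and Etv5 0.42). In Synpo+/+ CA3, Ccnd1 (1.1) and Ier3 (1.03) were called. Of 12 immediate early genes, 9 were higher in Synpo+/+ DG, 11 in Synpo-/- DG, 4 in Synpo-/- CA3 and 1 in Synpo+/+ CA3, and none was lower. Egr1 rose by a log2 fold change of 1.79 in Synpo+/+ DG, 2.48 in Synpo-/- DG and 1.84 in Synpo-/- CA3.

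To compare the regions, DG was set against CA3 within each genotype and lesion state. Spred1 was higher in DG of Synpo-/- controls, with 162 to 202 CPM (median 186, n = 7) against 145 to 174 CPM (median 158, n = 6) in CA3. The log2 fold change was 0.29 ± 0.0757 (adjusted p = 0.00802), while the ranges overlapped. It was the 1 of 9 members called, against 25.5% of all genes, and the call was absent without a filter on low counts (adjusted p = 0.0756) and with all regional groups in 1 fit (0.104). In lesioned Synpo-/- cultures, Spry1 was lower in DG, with 6.6, 7.33, 6.84 and 8.08 CPM against 9.31 to 12.4 CPM (median 10.5, n = 6) in CA3. All DG libraries lay below all CA3 libraries, and the log2 fold change was -0.56 ± 0.128 (adjusted p = 0.00859), for 1 of 9 members against 13.6% of all genes.

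In Synpo+/+ cultures no member was called between the regions by edgeR, against 5.39% of all genes in control and 2.05% in ECL (3 and 2 of 9 members had an unadjusted p under 0.05). Of all genes, 4521 of 25656 in control and 4698 of 24029 in ECL had an unadjusted p under 0.05. DESeq2 called Spry2 in control, where it called 3.35% of all genes, and none in ECL. Dusp5 was at -1.12 ± 0.328 in control (adjusted p = 0.0676), with 1.66 CPM ± 0.397 in DG (n = 4) and 3.67 ± 1.09 in CA3 (n = 2). The ECL comparison depended on the low-Prox1 library. Without it, Dusp5 (-0.78, adjusted p = 0.00856) and Spry4 (-0.57, adjusted p = 0.0137) were called lower in DG, and with it they stood at -0.6 (0.165) and -0.44 (0.197). The share of all genes called without it is not given here, so these calls cannot be set against it. Dusp6 itself was not called between the regions, with log2 fold changes from -0.09 in Synpo-/- control to 0.31 in Synpo-/- ECL, with adjusted p of at least 0.123.

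Genotypes were compared within each region and lesion state to ask whether the label Synpo-/- goes with other levels of these genes. No member was called by edgeR in CA3 control, CA3 ECL, DG control or DG ECL, where 2, 2, 1 and 0 of 9 members had an unadjusted p under 0.05. Of all genes, 0.00413%, 0.00891%, 0.0166% and 0.0166% were called. An unadjusted p under 0.05 was seen in 3959 of 24203, 1383 of 22447, 3746 of 24143 and 859 of 24100 genes. DESeq2 called 1 member, Spry2 in CA3 control, where it called 834 genes (1.67%). Spry2 had 76.2 and 88.8 CPM in the 2 Synpo+/+ CA3 controls and 36.5 to 61.2 CPM (median 43.9) in the 6 labelled Synpo-/-, without overlap. Its log2 fold change was -0.89 ± 0.153 with an unadjusted p of 3.9e-05 and an adjusted p of 0.0626, and over the alternatives the adjusted p ran from 2.71e-06 to 0.113. In CA3 ECL the value was 0.08 ± 0.19.

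No member was called by edgeR in the interaction tests of genotype with lesion, in which 0.0% of all genes were called for CA3 and 0.00381% for DG. In each region 1 of 9 members had an unadjusted p under 0.05, Spry2 in CA3 (0.95 ± 0.269, adjusted p = 0.145) and Spred1 in DG (-0.3 ± 0.129, adjusted p = 0.478). Of all genes, 4589 of 26821 in CA3 and 2730 of 26245 in DG had an unadjusted p under 0.05. DESeq2 called Spry2 in CA3, where it called 383 genes (0.741%), and no member in DG. The CA3 interaction rests on 2 Synpo+/+ control libraries. For Dusp6 it was -0.2 ± 0.279 in CA3.

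Since these genes are known targets of activity, each member was set against immediate early genes across the 39 regional libraries. The measure was the mean log2 CPM of Fos, Egr1, Junb, Npas4 and Arc, and both values were taken as deviations from the mean of the library's own group, so that lesion, region and genotype means were removed. Each pair of values came from the same library and thus shared its depth and dissection. Dusp4 had Pearson's r = 0.564 (permutation within groups, two-sided, p = 0.00055, adjusted 0.00495 over the 9 relations computed) and Spearman's rho = 0.576 (p = 0.0006, adjusted 0.0054). Dusp6 had r = 0.542 (permutation p = 0.0024, adjusted 0.0108) and rho = 0.445 (p = 0.0122, adjusted 0.0366).

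Dusp1 had r = 0.462 (permutation p = 0.00596, adjusted 0.0176) and rho = 0.444 (p = 0.0111, adjusted 0.0366). Dusp5 had r = 0.447 (permutation p = 0.00783, adjusted 0.0176), but rho = 0.339 (p = 0.0512, adjusted 0.0922). For Spry1, r was 0.369 (permutation p = 0.0404, adjusted 0.0727) and rho 0.392 (p = 0.0216, adjusted 0.0486). The r of Spry2 (0.283), Spred2 (0.3), Spry4 (0.162) and Spred1 (-0.027) had adjusted permutation p of 0.18, 0.162, 0.394 and 0.875. Their rho was 0.197, 0.302, 0.133 and -0.053, with adjusted permutation p of 0.37, 0.147, 0.493 and 0.748. Hence the 4 phosphatases had the largest r of the 9 members.

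Without the 2 libraries farthest from the median of the immediate early gene measure, r was 0.581 for Dusp4, 0.56 for Dusp6, 0.495 for Dusp1 and 0.556 for Dusp5, and for the other members between -0.078 and 0.472. Within the 4 groups of at least 6 libraries the relation was uneven. The r of Dusp6 was 0.984 in Synpo-/- CA3 ECL, 0.847 in Synpo+/+ DG ECL and 0.607 in Synpo-/- CA3 control, but -0.161 in Synpo-/- DG control. That of Dusp4 was 0.813, 0.572, 0.941 and 0.081 in the same order, and that of Dusp1 0.666, 0.844, 0.569 and 0.387. That of Dusp5 was 0.662, 0.202, 0.703 and 0.479. In the smaller group Synpo-/- DG ECL (n = 4), deviations of Dusp6 from the group mean were between -0.018 and 0.008. The immediate early gene measure ran from -0.772 to 0.579 there.

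**Figure D4:**
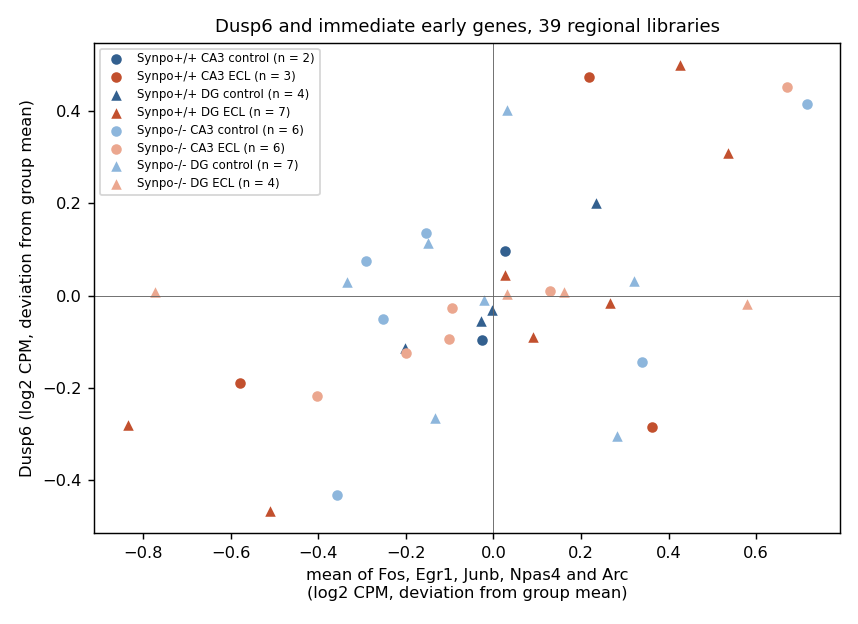
Dusp6 (y axis) against the mean of 5 immediate early genes (x axis), both as deviations in log2 CPM from the group mean, with 1 point per regional library, circles for CA3 and triangles for DG, and colours for the 8 groups. Points rise from lower left to upper right over all libraries (r = 0.542), while the Synpo-/- DG control libraries (light blue triangles) do not (r = -0.161). The Synpo-/- DG ECL libraries (light red triangles) do not rise either, and stay between -0.018 and 0.008 on the y axis.

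Among 17469 genes with at least 1 CPM on average, members included, the non-members with the 8 regional group means most like Dusp6 were Il1r1, S1pr3 and Trib1. Their root mean square differences from Dusp6, after centring, were 0.123, 0.124 and 0.132 on the log2 scale. Il1r1 encodes the interleukin-1 receptor, S1pr3 a receptor for sphingosine-1-phosphate and Trib1 a Tribbles pseudokinase. Since these genes were chosen by group means of the same libraries, lesioned groups included, their lesion values describe the match and give no separate support. In DG, S1pr3 was at 1.2 in Synpo+/+ (adjusted p = 6.42e-05) and 1.33 in Synpo-/- (1.6e-06). Trib1 was at 0.91 (adjusted p = 0.00364) and 0.9 (0.00404), and Il1r1 at 0.74 (0.0111) and 0.94 (0.00577). In CA3, S1pr3 was called in Synpo+/+ (0.73, adjusted p = 0.0354) and not in Synpo-/- (0.45, 0.0777).

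The genes most like Dusp5 were A830005F24Rik, Samd9l and Cd24a (0.141, 0.159 and 0.16), and those most like Spry1 were Grpr, 4833408A19Rik and Btbd6 (0.102, 0.113 and 0.128). Of these 6, Cd24a was called after lesion in DG of both genotypes (0.68 with adjusted p = 0.00596, and 0.53 with 0.00404), and none of the others in any regional lesion comparison. These genes, too, were chosen on the same libraries. The other 6 members had group means less than 1 log2 unit apart and were not matched.

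To see whether the transcripts were recovered with synaptopodin, coIP RNA was compared with input RNA. Dusp6 was lower in coIP than in input in each of the 3 comparisons, the libraries labelled Synpo-/- included. In Synpo+/+ control, coIP samples 1 to 5 had 51.8, 46.6, 33.4, 41.0 and 41.3 CPM, each below the input of the same number. The log2 fold change was -0.41 ± 0.116 (adjusted p = 0.0074). In Synpo+/+ ECL, coIP samples had 47.3, 40.7, 45.3, 38.7 and 38.6 CPM, again each below the input of the same number, with -0.52 ± 0.0964 (adjusted p = 0.000402). In Synpo-/-, inputs of 51.5 and 46.4 CPM stood against coIP values of 38.4 and 31.2 CPM, with -0.52 ± 0.154 (adjusted p = 0.0214). The Synpo-/- call was kept in 1 of the 4 fits that left out a library, the one without coIP replicate 1.

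A large share of all genes differed between the fractions. Of the members, 1 of 9 members was called in Synpo+/+ control, 2 in Synpo+/+ ECL and 2 in Synpo-/-, against 55.0%, 58.3% and 31.4% of all genes. The interaction of genotype with fraction, in which the Synpo-/- samples of unstated lesion state stand against Synpo+/+ control, was 0.06 ± 0.212 for Dusp6 (adjusted p = 0.976). By edgeR it called none of the members (0 with an unadjusted p under 0.05) and 0.0% of all genes (1511 with an unadjusted p under 0.05). DESeq2 called none of the members and 60 genes. Once the trend with gene length between libraries was removed, Dusp6 was at -0.2 in Synpo+/+ control (adjusted p = 0.144), -0.24 in Synpo+/+ ECL (0.0372) and -0.39 in Synpo-/- (0.0664).

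Besides Dusp6, Spry4 and Dusp1 were called. Spry4 was lower in coIP of Synpo+/+ ECL, with 11.2, 8.49, 10.7, 8.04 and 9.37 CPM against 13.6, 13.1, 10.2, 13.2 and 12.1 CPM in input, lower in 4 of 5 pairs of the same number. Its log2 fold change was -0.37 ± 0.135 (adjusted p = 0.0311), and it lost the call in 5 of 10 fits that left out a library. Dusp1 was higher in coIP of Synpo-/-, with 6.01 and 6.84 CPM against 3.97 and 3.98 CPM in input. Its log2 fold change was 0.66 ± 0.235 (adjusted p = 0.049), with no call in the 4 fits that left out a library. In Synpo+/+ the values of Dusp1 were 0.26 and 0.1, and the fractions overlapped.

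**Figure D5:**
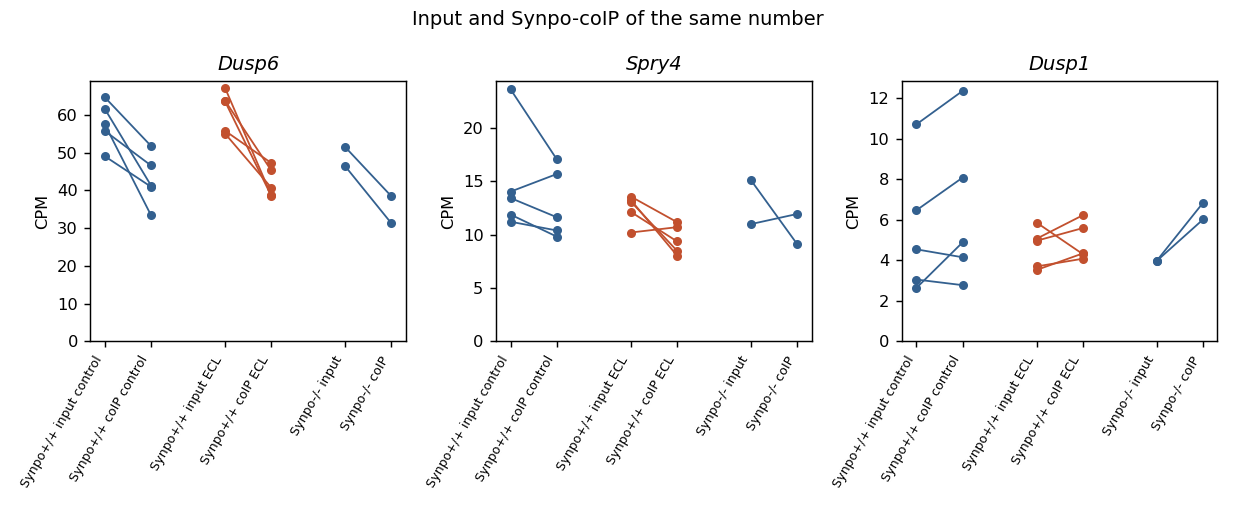
TMM-normalized CPM (y axes, from 0) of Dusp6, Spry4 and Dusp1 in input and Synpo-coIP RNA (x axes), with a line joining samples of the same number (for Synpo-/-, the preparation number), blue for control and for Synpo-/- and red for ECL. All 12 Dusp6 lines fall from input to coIP, and the Dusp1 lines rise in both Synpo-/- preparations.

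In coIP RNA the same lists stand against the 55.0% and 31.4% of all genes called in either direction in Synpo+/+ control and Synpo-/-. Called higher were 5389 of 18222 and 3138 of 20892 genes. The list values below are from the fit in which the gene length trend was not removed. In Synpo+/+ control, 13 of 14 receptors and 8 of 8 Ras GTPase activating proteins were higher in coIP and none lower, with median log2 fold changes of 0.88 and 0.68. In Synpo-/-, 9 of 14 receptors and 4 of 8 Ras GTPase activating proteins were higher, with medians of 0.69 and 0.42, and the interaction of genotype with fraction called none of either list by edgeR. The 25 kinase cascade genes were split, with 8 higher and 7 lower in Synpo+/+ control. The members themselves had medians of 0.12 in Synpo+/+ control, -0.17 in Synpo+/+ ECL and -0.16 in Synpo-/-, against medians of all genes between 0.02 and 0.04.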

How the data were processed

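Per the labels and the methods, the authors trimmed reads with cutadapt (3.5), aligned them to mm10 with STAR (2.7.8a) and made raw counts per gene symbol over GENCODE M25 exons with featureCounts (2.0.1), without strand. Counts were deposited 1 library at a time, unpooled, and 107 symbols join more than 1 gene identifier. Regional libraries were made from polyadenylated RNA with a low-input kit. All 63 libraries were used, grouped by their labels. Nothing says that replicates within a group come from different animals, so p-values measure the spread between these samples, which may in part be technical. No libraries held identical counts.

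Each of 20 comparisons was fitted on the libraries it names with edgeR (4.0.16, R 4.3.3): TMM factors, filterByExpr, the quasi-likelihood test, two-sided, with Benjamini-Hochberg adjustment over all genes that passed the filter (all 9 members did in each) and a call at an adjusted p under 0.05. The smallest numbers of libraries (2 in some groups) and counts near 20 (Dusp4, Dusp5) limit precision most. Levels between genes were divided by exon length. CPM for the relation to immediate early genes used a prior count of 2 and 100000 permutations within groups. Alternatives were DESeq2 (1.42.0), RLE size factors, no filter, a replicate block, all groups in 1 fit, removal of the gene length trend (lowess, span 0.3, genes with a mean count over 50), a mean normalized count over 300, and leaving out each library. On simulated counts with 200 genes changed 4-fold, edgeR recovered 192 to 200 of them over the 20 comparisons (17675 to 25493 genes), with at most 18 false calls. DESeq2 recovered 190 to 200, with at most 40 false calls. The changed genes had mean counts over 50, and all member differences were smaller than 4-fold. Recovery of smaller changes or at lower counts was not simulated.

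In the coIP experiment, input was part of the lysate used for precipitation by the methods, but that equal numbers mark the same lysate is not stated, and for Synpo-/- the labels hold 2 numberings that cross, of which the preparation number was used. The deviations of same-numbered coIP and input samples from group means correlated by 0.142 to 0.336 in Synpo+/+ control, 0.0716 to 0.261 in Synpo+/+ ECL and 0.0476 in Synpo-/-. The members and gene lists were chosen with earlier results of these data known. Named were all 9 members, Synpo, Prox1, up to 3 called genes per list and direction with the smallest p in each lesion comparison, and the 3 genes most like each member whose regional group means spanned at least 1 log2 unit, among genes of at least 1 CPM.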

Additional observations from a re-analysis of the deposited data

Results flagged for a closer look

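In groups of 4 to 10 libraries, the extreme library was set against the rest by Dixon's criterion, and 8 of the 90 combinations of member and group passed it, where chance gives about 1 in 20. In Synpo-/- CA3 control, Dusp5 was at 6.91 CPM in replicate 5, with the next library at 2.43 CPM. In Synpo+/+ DG ECL, Dusp5 was at 4.68 CPM in replicate 5, the low-Prox1 library, with the next at 2.95 CPM. In Synpo-/- CA3 ECL, Dusp6 was at 35.4 CPM in replicate 4, with the next at 26.0 CPM. In Synpo+/+ DG control, Spry2 was lowest in replicate 1, at 48.5 CPM against 61.5 CPM in the next. In Synpo+/+ input control, replicate 1 held both Spry2 at 28.1 CPM (next 15.8 CPM) and Spry4 at 23.6 CPM (next 14.0 CPM). In Synpo+/+ DG ECL, Spred1 was at 193 CPM in replicate 4 (next 175 CPM), and in Synpo+/+ input ECL, Spred2 was at 16.3 CPM in replicate 2 (next 13.1 CPM).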

How the results depend on the processing

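Dusp6 stayed called after lesion in DG of both genotypes under all 7 alternatives and without any single library. With the gene length trend removed, the median of all genes moved by -0.14 in Synpo+/+ DG and -0.13 in Synpo+/+ CA3, and by 0.15 and 0.17 in the genotype by lesion tests of DG and CA3, and Dusp6 stood 0.89 above that median in Synpo+/+ DG and 1.08 in Synpo-/- DG. Among 3006 fits of members under alternatives, the sign differed in 195, none of them a member called in the main fit.

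Numbers of members called changed as follows. Without a filter on low counts, 2 were called for lesion in Synpo+/+ CA3 (Dusp6, Spry4), 1 in Synpo-/- CA3 (Dusp6), 1 between regions in Synpo+/+ control (Dusp5), 0 in Synpo-/- control, 1 between genotypes in CA3 control (Spry2), and 1 in coIP of Synpo+/+ ECL and of Synpo-/- (Dusp6). The shares of all genes called there were, in this order, 5.67%, 0.168%, 3.61%, 8.63%, 2.05%, 30.4% and 20.6%. DESeq2 called 1 for lesion in each CA3 (Dusp6), 2 in Synpo+/+ DG (Dusp5, Dusp6), 1 between regions in Synpo+/+ control, between genotypes in CA3 control and in the CA3 interaction (Spry2 in each), and 1 in coIP of Synpo-/- (Dusp6). Its shares of all genes were 3.04% in Synpo+/+ CA3, 0.133% in Synpo-/- CA3 and 8.39% in Synpo+/+ DG. For the other comparisons they were, in this order, 3.35%, 1.67%, 0.741% and 18.6%. Removing the length trend gave 1 in Synpo-/- CA3 (Dusp6), 1 between genotypes in CA3 control (Spry2) and 2 in coIP of Synpo+/+ control (Spred1, Spry1, with Dusp6 lost), added Spred1 to the 2 in coIP of Synpo+/+ ECL (3 in all), and left 2 in coIP of Synpo-/- (Dusp1 and Spred1, with Dusp6 lost). The shares of all genes called with the length trend removed were, in this order, 0.12%, 0.0124%, 49.4%, 51.5% and 28.1%. All groups in 1 fit gave 0 between regions in Synpo-/- control and 1 (Dusp6) in coIP of Synpo+/+ ECL and of Synpo-/-, and RLE factors gave 1 in the latter. Here the shares of all genes called were 17.6%, 54.7% and 23.4% with all groups, and 31.2% with RLE factors. The cause of these changes was not tested.

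Regional replicates share only a number, with correlations of -0.179 to 0.481. With the replicate block, 1 member was called between regions in Synpo+/+ ECL (Spry4, -0.58, adjusted p = 0.0189) and 1 between genotypes in CA3 control (Spry2, -0.99). In these fits 20.8% and 9.22% of all genes were called, against 2.05% and 0.00413% without the block. Elsewhere, coIP against input included, the block changed no count of members called.

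Leaving out 1 library at a time gave 1 to 2 members for lesion in Synpo+/+ DG (Dusp5 added without control replicate 1), 0 to 1 in Synpo-/- CA3 (Dusp6, without control replicate 5), 1 to 2 in Synpo-/- DG (Dusp1 added without control replicate 5), 0 to 2 between regions in Synpo+/+ ECL (Dusp5 and Spry4, without DG ECL replicate 5), and 1 to 3 in Synpo-/- ECL (Dusp5 and Spred2 added without CA3 ECL replicate 2, Dusp6 without replicate 4). It gave 0 to 1 between genotypes in CA3 control (Spry2, without Synpo-/- replicate 4, 5 or 6). In coIP of Synpo+/+ ECL it gave 1 to 3: Spry4 was lost without input replicate 1, 2 or 4 or coIP replicate 2 or 4, and Spred1 was added without coIP replicate 5. In coIP of Synpo-/- it gave 0 to 2, with Dusp6 and Spred1 called without coIP replicate 1, Spry2 without input replicate 2, and none otherwise. Where 1 library was left in a group, it was assumed to vary like the others. For the fits that left out a library, the share of all genes called is not given, so their member counts cannot be set against it. Spry2 in coIP of Synpo-/- ran from -0.10 (without input replicate 1) to 1.18 (without input replicate 2). The r of Spred1 with immediate early genes was 0.073 with Egr1 alone.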

Other observations

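Several members were high together in the first Synpo+/+ control preparation of the coIP experiment, in input as well as in coIP RNA. Dusp1 was at 10.7 CPM in input and 12.3 CPM in coIP, Dusp4 at 4.97 and 5.14 CPM, and Dusp5 at 3.70 and 3.82 CPM. Spry4 was at 23.6 and 17.1 CPM. Over the 24 libraries, the highest values of Dusp1, Dusp4, Dusp5 and Spry4 were all in this preparation.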
